A study of Hypomesus transpacificus with 70 samples.

Results

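The handling control of the salinity challenge asks what happens in the gill of delta smelt (Hypomesus transpacificus) when fish go through the experiment with no change in salinity. The comparison was made between 6 handling control fish sampled at the end of the 6 h ramp and 5 pre-experiment fish sampled before it, 11 of the 70 fish of the series, with each fish on its own single-color oligonucleotide array. They were chosen by their labels alone, as treatment 2 ppt at 6 hours and at 0 hours, which is the 2.3 ppt of the methods. All 11 were prespawning adults of a hatchery population that had been held at 2.3 ppt and moved to small flow-through containers the evening before. The pre-experiment fish were taken after that night, and the handling control fish stayed in their containers at 2.3 ppt while salinity was shifted for the other groups, so that the groups differ in 6 h of elapsed time, time of day and handling, which cannot be told apart. The labels name the fish A1, A2, A3, B1, C1 and C2 at ramp end and A1, A3, B1, B4 and C4 before the experiment, without saying what the letters mean or which fish shared a container. The p-values below therefore rest on the spread between single fish within groups, estimated over all 70 fish of the series, and a container effect cannot be told apart from the group.

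The gill is the main site of ion uptake in a fish that lives in water more dilute than its blood, and much of that work is done by ionocytes, cells rich in the sodium pump. It is also a barrier tissue in direct contact with microbes, with resident immune cells and an epithelium that is steadily renewed by cell division. Capture, crowding and confinement activate the stress axis of fishes, and cortisol and catecholamines act on the gill.

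The median processed signal of the arrays ranged from 12.9 to 131 over the series, with pre-experiment fish A1 the dimmest of all 70. It ranged from 40.6 to 118 at ramp end and from 12.9 to 103 before the experiment, and log2 of the median averaged 6.09 ± 0.65 (SD, n = 6) and 5.37 ± 1.09 (SD, n = 5), a difference that an exact two-sided permutation test did not separate from the spread between fish (p = 0.216). The share of probes well above background was 85.4% ± 4.8 (SD, n = 6) at ramp end and 80.0% ± 8.7 (SD, n = 5) before the experiment (exact two-sided permutation test, p = 0.229). Of 8 listed ionocyte markers 5 could be named, and their brightness differed. The mean signal of the probes for atp1a1a.4, a catalytic subunit of the sodium pump, lay above at least 98.9% of all probes, that of atp1b1b, a beta subunit, above at least 98.2%, and that of rhcga, an ammonia transporter, above at least 95.6% on every array, while atp1a1a.1, another catalytic subunit, lay above at least 81.5% and the cotransporter slc12a2 above at least 63.4%. No probe could be named for cftr, foxi3a or foxi3b. Of the leukocyte markers that could be named, hcls1 had a log2 difference of 0.44 (SE 0.43, adjusted p = 0.636 from limma, n = 6 and 5), and gpr84 did not pass the filter on dim probes. No probe could be named for the listed markers of red blood cells, other epithelium or muscle, and the part of those cells was not tested.

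The largest axis of variation among the 11 fish did not follow the groups. A principal component analysis of the 14111 probes measured in every one of them gave a first axis with 42.7% of the variance, on which pre-experiment fish A1, B1 and C4 and ramp-end fish C1 lay on one side, between -74.4 and -32.9, and the other 7 fish on the other, between 14.1 and 52.9. Brightness moved with this axis. The 4 fish on the first side had median signals from 12.9 to 47.1 and the other 7 from 41.8 to 118. The second axis, with 15.9% of the variance, set ramp-end fish B1 apart at 80.7, with the next at 14.3. Fish of the same group were not more alike than fish of different groups by much: the median correlation of log2 signals was 0.903 over the 10 pairs of pre-experiment fish, 0.864 over the 15 pairs of ramp-end fish and 0.861 over the 30 pairs between groups, and the highest of all pairs among the 11, 0.957, joined fish of different groups.

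**Figure D1:**
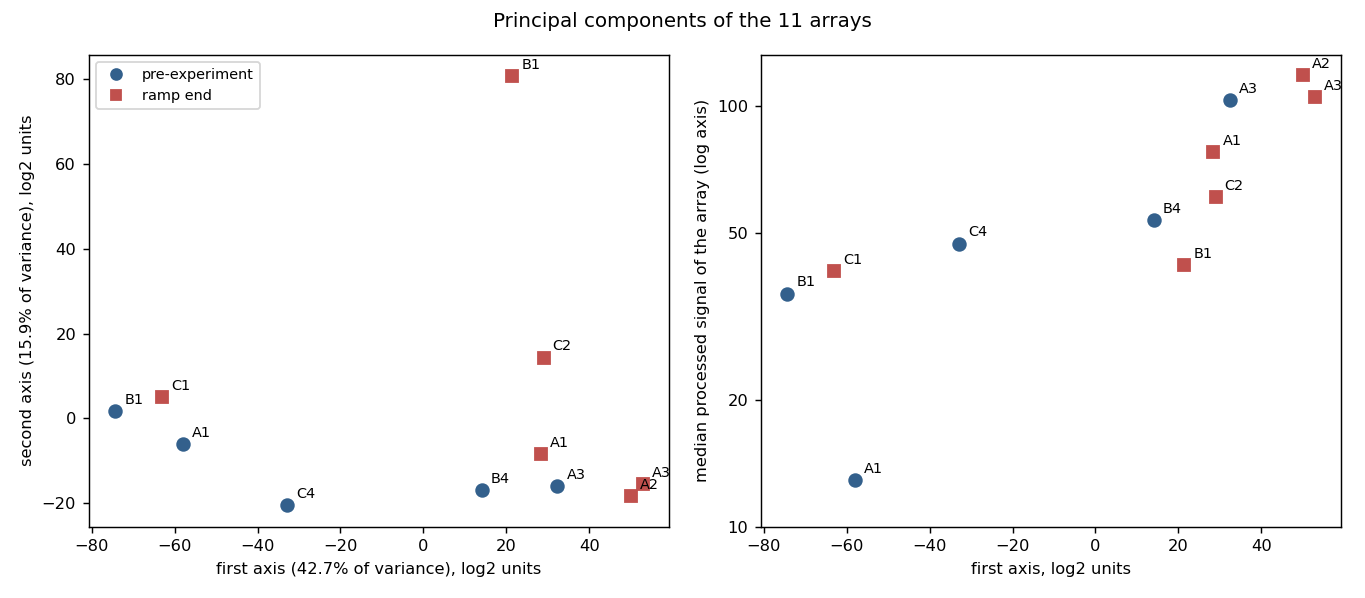
Principal components of the log2 signals of the 11 arrays (left, first and second axis in log2 units) and the first axis against the median processed signal of each array (right, log axis), with the label of each fish. Ramp-end fish C1 lies beside pre-experiment fish A1 and B1 on the first axis, and ramp-end fish B1 lies alone on the second at 80.7.

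Between the end of the handling ramp and the pre-experiment baseline, 0 of 14424 probes were differentially expressed at an adjusted p of 0.05 (limma, percent called 0%), and the smallest adjusted p was 0.195. At an unadjusted p under 0.05 there were 1624 probes, 1019 higher at ramp end (7.06% of those tested) and 605 lower (4.19%). Storey's q-value also called 0 probes. The median log2 difference over all probes was 0.047, and its 5th and 95th percentiles were -0.80 and 0.68. The 95% interval of a difference had a median half-width of 0.54 log2 units, and for 9168 probes, 63.6%, it lay wholly within 1 log2 unit of 0, so that a 2-fold change lay outside the interval of these probes and inside that of the others. In all, 192 probes had groups that did not overlap, 128 higher and 64 lower. Split by mean signal into dim, middle and bright probes of equal number, 8.19%, 7.4% and 5.59% were higher and 3.47%, 5.39% and 3.72% lower under the unadjusted limit. The balance of directions depended on the table: in the authors' own log2 values of the same probes 636 were higher and 780 lower.

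Which fish entered the comparison moved the unadjusted count. It was 2937 without ramp-end fish C1, 895 without pre-experiment fish A1 and 955 without pre-experiment fish B1, and no probe was called in any of these. Another fit weighted each array by its agreement with its own group, estimated over the 70 arrays. Ramp-end fish C1 and B1 had weights of 0.424 and 0.552, and the other ramp-end fish weights from 1.29 to 1.56. Pre-experiment fish C4 had a weight of 2, and A1, A3, B1 and B4 had 0.687, 0.835, 0.888 and 1.16. This weighted fit called 1580 probes, 861 higher and 719 lower, or 1536 of the 14225 genes and single probes described below (10.8%). In the main fit 11.3% of the 14424 probes were under the unadjusted limit. With log2 median signal as a covariate the count was 768 (5.32%), and with brightness as a covariate within the 11 arrays alone 1268 (8.79%). Within the first scan day, with 4 fish in each group, it was 783 (5.43%) and no probe was called.

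**Figure D2:**
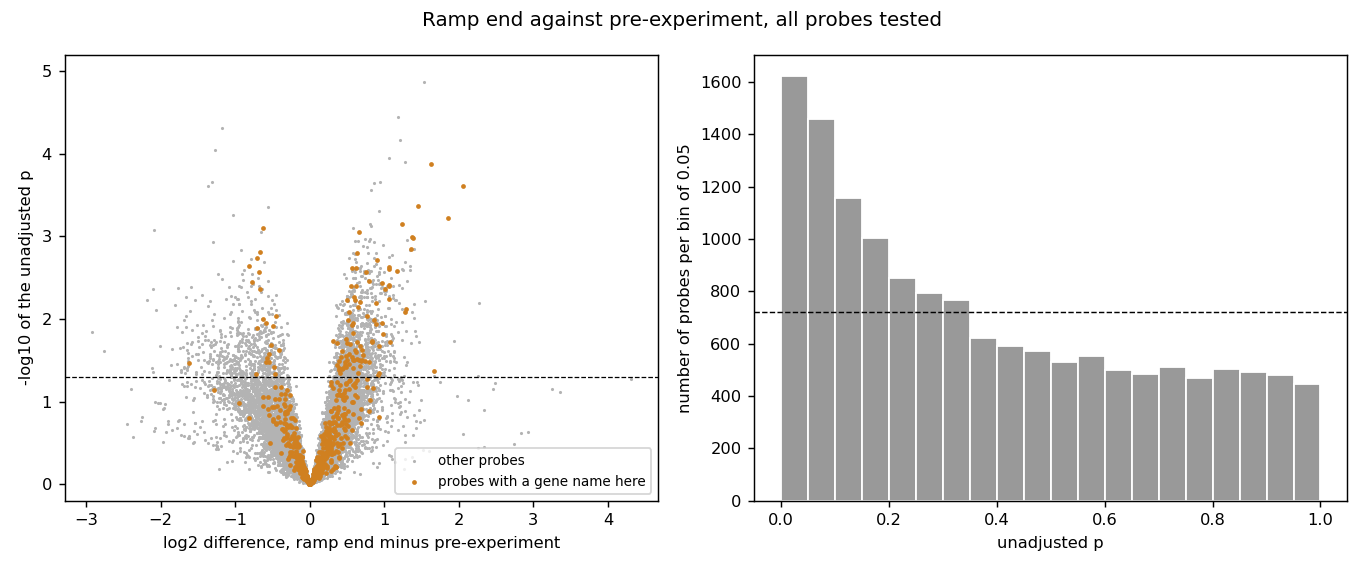
Log2 difference of each of the 14424 probes, ramp end minus pre-experiment, against −log10 of its unadjusted p (left, dashed line at 0.05), with the probes that have a gene name in orange, and the number of probes in each 0.05 bin of p (right, dashed line at an even spread). The lowest bin holds 1624 probes, and none passed the threshold after adjustment.

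Gene names were taken from the supplementary list of 697 oligos that the study published with names and sequences, of which 575 passed the filter. They stand for 376 genes, averaged over their probes in each fish and tested together with all other probes, 14225 genes and single probes in all. The study chose this list because the genes differed with salinity or its interaction with time in these same arrays, so it is not a random sample of the gill transcriptome, and the 6 handling control fish were part of that choice. Of the 376 genes, 0 passed the adjusted threshold and 69, 18.4%, had an unadjusted p under 0.05, 54 higher at ramp end (14.4%) and 15 lower (3.99%), against 6.91% higher and 4.2% lower over all genes and single probes. The groups did not overlap for 9 genes with higher and 3 with lower values, against 0.9% and 0.436% over all genes and single probes. None of the differences of named genes between these groups passed the test, and every difference given for them below is a measurement with its error and not a call.

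The 10 highest moderated t values belonged to a rhamnose-binding lectin, ano9a, zgc:92533, a gene similar to PLEKHF1, il17a/f3, si:ch73-340m8.2, si:dkey-61p9.9, a gene similar to DMBT1, eya2 and si:dkey-239b22.1, with log2 differences from 0.60 to 1.63. For each of the 10, all 6 ramp-end fish lay above the pre-experiment mean. The 10 were chosen by their t in this same comparison, so that agreement is largely built in and is not separate evidence. The probe of the lectin and the probes of il17a/f3, PLEKHF1-like and socs1a are shown here because they carry large differences of genes described below. Their sequences also say how independent the probes of a gene were. Each oligo is 60 bases long and is written as the list gives it, in capitals where a run of bases is shared with the other oligo for the same transcript, and in lower case throughout where the list holds 1 oligo.
il17a/f3, isotig05375, CUST_3379: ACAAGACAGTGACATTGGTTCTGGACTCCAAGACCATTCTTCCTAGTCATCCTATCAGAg
il17a/f3, isotig05375, CUST_3380: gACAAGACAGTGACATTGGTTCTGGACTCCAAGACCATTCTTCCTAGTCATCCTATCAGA
il17a/f3, isotig05374, CUST_3377: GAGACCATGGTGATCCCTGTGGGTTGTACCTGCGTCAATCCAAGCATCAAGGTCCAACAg
il17a/f3, isotig05374, CUST_3378: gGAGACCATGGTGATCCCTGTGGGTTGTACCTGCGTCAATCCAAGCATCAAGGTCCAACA
PLEKHF1-like, isotig30094, CUST_33484: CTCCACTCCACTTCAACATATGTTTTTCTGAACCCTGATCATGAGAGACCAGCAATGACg
PLEKHF1-like, isotig30094, CUST_33485: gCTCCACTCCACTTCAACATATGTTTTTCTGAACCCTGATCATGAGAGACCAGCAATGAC
socs1a, isotig12577, CUST_11741: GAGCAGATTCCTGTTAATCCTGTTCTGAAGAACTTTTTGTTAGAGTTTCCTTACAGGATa
socs1a, isotig12577, CUST_11742: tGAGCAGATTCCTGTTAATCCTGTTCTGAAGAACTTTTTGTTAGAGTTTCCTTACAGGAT
rhamnose-binding lectin, isotig01694, CUST_630: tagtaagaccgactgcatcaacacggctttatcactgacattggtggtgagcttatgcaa
For il17a/f3, PLEKHF1-like and socs1a the paired oligos share 59 of 60 bases, that is, they are shifted by a single base. Over the list, 99 of the 210 transcripts with 2 oligos had such a pair, 70 shared 12 to 58 bases and 41 fewer than 12, so agreement between the probes of a gene is often agreement of nearly the same oligo. Of 161 genes with more than 1 probe past the filter, 139 had the same sign on all of their probes, and the median range of the log2 difference over the probes of a gene was 0.107.

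Interleukin-17 cytokines are secreted by lymphocytes at mucosal surfaces in mammals and call neutrophils to epithelia. The log2 signal of il17a/f3 was 4.67, 5.39, 5.73, 4.43 and 4.98 in pre-experiment fish A1, A3, B1, B4 and C4, and ran from 5.81 over a median of 6.49 to 7.69 at ramp end. The groups did not overlap. The difference was 1.62 ± 0.46 (SE, n = 6 and 5 fish), a 3.07-fold higher signal with a 95% interval of 0.69 to 2.54 in log2 units, and did not pass the threshold (adjusted p = 0.406 from limma). The symbol covers different transcripts, and the oligos of isotig05375 gave larger differences, 2.06 and 1.86, than those of isotig05374, 1.27 and 1.28. It is a dim gene, with 41 of its 44 spots on these arrays well above background.

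Rhamnose-binding lectins are proteins of fish eggs, skin and gill mucus that bind sugars on the surface of microbes. The lectin had log2 signals of 4.34, 6.25, 5.02, 5.71 and 6.30 in the pre-experiment fish in the same order, and from 6.01 over a median of 7.02 to 8.96 at ramp end. Ramp-end fish C1 and pre-experiment fish A3 and C4 made the groups overlap, and ramp-end fish A2, at 8.96, stood above all others, the next being C2 at 7.37. Its difference of 1.63 ± 0.40 (SE, n = 6 and 5 fish; adjusted p = 0.235 from limma) had the highest moderated t of all named genes. The 2 DMBT1-like genes, relatives of a mammalian mucosal protein with scavenger receptor domains that binds bacteria, were bright, at 14.58 ± 0.26 and 14.6 ± 0.32 (SD, n = 6) in log2 signal at ramp end and at 13.68 ± 0.39 and 13.85 ± 0.46 (SD, n = 5) before it, with overlapping groups.

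For PLEKHF1-like, named for a lipid-binding protein of endosomes and lysosomes, the pre-experiment signals were 9.96, 10.97, 10.35, 10.13 and 9.95 and the ramp-end signals ran from 11.01 over a median of 11.73 to 12.10, so that the groups did not overlap, though pre-experiment fish A3 lay just under ramp-end fish B1. The difference was 1.42 ± 0.40 (SE, n = 6 and 5 fish; adjusted p = 0.406 from limma). The uncharacterized gene zgc:92533 had groups well apart, with pre-experiment signals of 6.79, 6.46, 6.79, 6.76 and 6.31 against 7.33 to 8.71 at ramp end, a difference of 1.23 ± 0.34 (SE; adjusted p = 0.406 from limma). The tyrosine kinase-like gene si:ch73-340m8.2 differed by 1.1 ± 0.32 (SE) without overlap, and si:dkey-61p9.9, similar to the NLR family of intracellular sensors, by 1.36 ± 0.40 (SE) with overlap through ramp-end fish B1. The anoctamin gene ano9a, of a family of chloride channels and lipid scramblases, differed by 0.60 ± 0.16 (SE; adjusted p = 0.368 from limma). Its ramp-end fish were tightly grouped, from 7.59 to 8.06, and pre-experiment fish A1, at 7.91, lay among them.

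**Figure D3:**
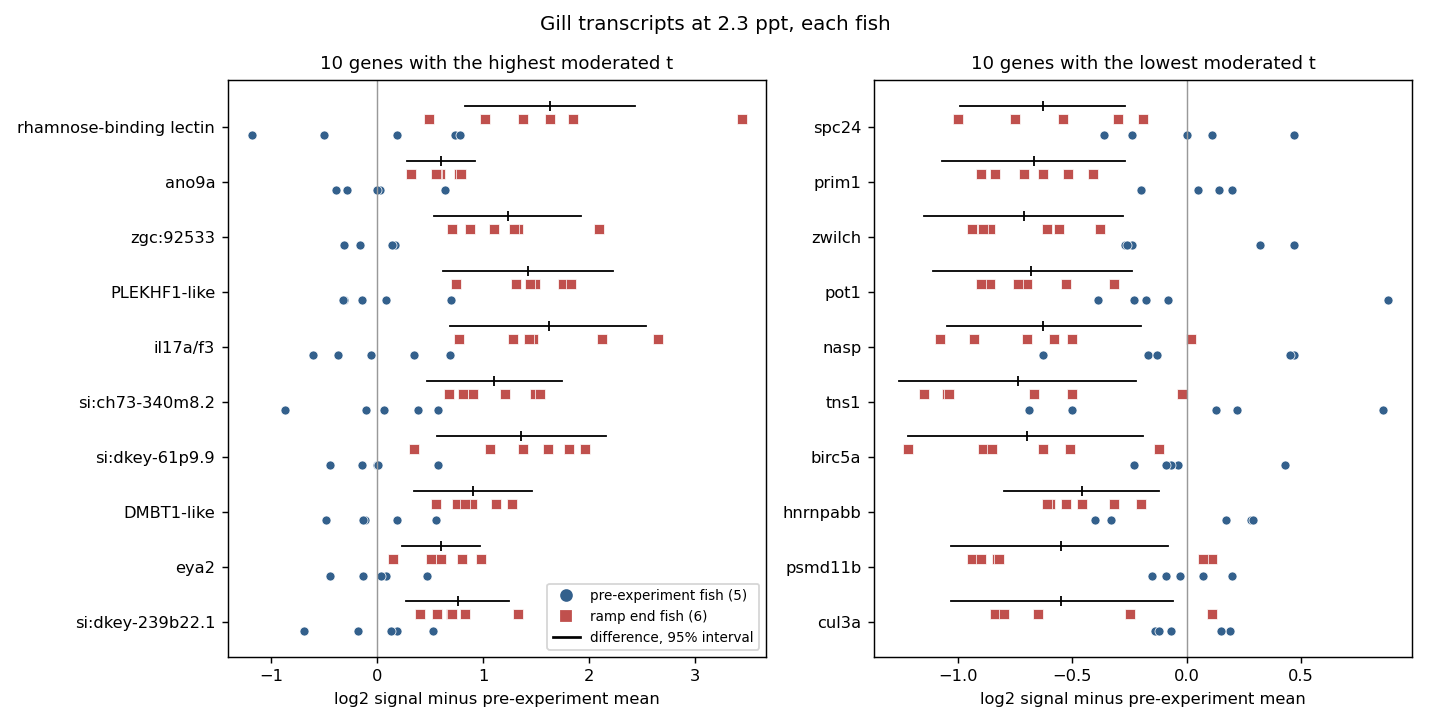
Log2 signal of each fish minus the pre-experiment mean for the 10 named genes with the highest (left) and lowest (right) moderated t, pre-experiment fish as circles, ramp-end fish as squares, and the difference with its 95% interval as a bar. Intervals leave out 0 for all 20, none of which passed the adjusted threshold, and the groups overlap in most. The 20 were chosen by their t in this comparison, so intervals that leave out 0 are largely built in.

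Of the 10 lowest moderated t values, spc24, prim1, zwilch, nasp and birc5a came from the list of 25 cell division and DNA replication genes, and the others were pot1, which protects telomeres, tns1, a focal adhesion protein, hnrnpabb, an RNA-binding protein, psmd11b, a proteasome subunit, and cul3a, a scaffold of ubiquitin ligases. The oligos of spc24, prim1, zwilch and birc5a are shown to mark which transcripts were measured. Capitals again mark bases shared with the other oligo of the same transcript, which for zwilch is not shown.
spc24, isotig25852, CUST_28464: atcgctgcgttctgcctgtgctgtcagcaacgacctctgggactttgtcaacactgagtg
prim1, isotig20324, CUST_22019: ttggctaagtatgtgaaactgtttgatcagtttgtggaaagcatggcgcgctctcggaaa
zwilch, isotig17277, CUST_17953: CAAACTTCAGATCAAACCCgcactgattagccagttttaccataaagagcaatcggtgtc
birc5a, isotig31635, CUST_35238: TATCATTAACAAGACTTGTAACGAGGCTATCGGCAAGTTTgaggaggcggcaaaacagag
birc5a, isotig31635, CUST_35239: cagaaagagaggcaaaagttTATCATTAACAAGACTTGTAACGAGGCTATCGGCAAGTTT
The oligos of birc5a share 40 bases, and the second oligo of zwilch, with 19 shared bases, did not pass the filter on dim probes. Spc24 is part of the kinetochore complex that holds microtubules. Its log2 signal was 10.53, 9.70, 10.06, 10.17 and 9.82 in pre-experiment fish A1, A3, B1, B4 and C4 and ran from 9.06 over a median of 9.41 to 9.87 at ramp end, a difference of -0.63 ± 0.18 (SE, n = 6 and 5 fish; adjusted p = 0.406 from limma). Every ramp-end fish lay below the pre-experiment mean, and the groups overlapped. The DNA primase subunit prim1 had signals of 7.78, 7.69, 7.44, 7.84 and 7.44 before the experiment and 6.74 to 7.23 at ramp end, and those of zwilch, a kinetochore checkpoint protein, were 7.80, 7.06, 7.09, 7.65 and 7.07 against 6.39 to 6.95. The groups of both genes did not overlap, with differences of -0.67 ± 0.20 and -0.71 ± 0.22 (SE; adjusted p = 0.406 from limma for both). Survivin, birc5a, which serves chromosome segregation and blocks apoptosis, differed by -0.70 ± 0.26 (SE), and the histone chaperone nasp by -0.63 ± 0.21 (SE).

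All 16 cell division genes that passed the filter had differences at or below 0, from -0.71 to 0.00 with a median of -0.39, while the median over all genes and single probes was 0.046. At an unadjusted p under 0.05, 7 were lower (spc24, prim1, zwilch, nasp, birc5a, kifc1 and mcm4) and 0 higher, where 4.2% of all genes and single probes and 3.99% of the 376 named genes were lower. The gene lists here and below were written with earlier results of these data known, so such shares describe them and are not a test. The other 9 genes of the cell division list did not pass the filter. Leaving out each fish in turn moved the median between -0.47 and -0.26. As a mean over the 16 genes relative to the pre-experiment mean, 5 ramp-end fish lay from -0.58 to -0.36, below every pre-experiment fish (-0.25 to 0.41), and ramp-end fish A1, at 0.03, lay among them. The 16 genes were read on the same 11 arrays and are not independent measurements, and in whole gill tissue fewer dividing cells and less of these transcripts per cell cannot be told apart.

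The list of JAK-STAT signaling and its suppressors had the highest median. Signals of many cytokines run through JAK kinases and STAT factors, and the SOCS proteins and CISH are switched on by that pathway and close it down. All 7 genes of the JAK-STAT list that passed the filter, of 9, were higher in mean at ramp end, with a median of 0.63. Where 14.4% of the 376 named genes and 6.91% of all genes and single probes were higher at an unadjusted p under 0.05, 5 of the 7 were. These were socs3b at 1.02 ± 0.35, socs1a at 0.96 ± 0.33, socs2 at 0.71 ± 0.32, cish at 0.63 ± 0.23 and stat3 at 0.51 ± 0.25 (SE, n = 6 and 5 fish), with adjusted p from 0.406 to 0.443. Only socs1a had groups that did not overlap, with 8.34, 7.90, 7.97, 7.84 and 7.62 before the experiment and 8.41 to 9.34 at ramp end. For socs3b the pre-experiment fish alone ran from 5.01 to 7.06. The other members past the filter, il12ba and m17, differed by 0.60 and 0.29. As a mean over the 7 genes the ramp-end fish lay from 0.31 to 0.82 above the pre-experiment mean, with C1 the lowest, and pre-experiment fish A1 at 0.44 lay above C1.

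Of the inflammatory cytokines, chemokines and receptors, 15 of 19 passed the filter, and 14 were higher in mean with a list median of 0.50. Where 14.4% of the 376 named genes and 6.91% of all genes and single probes were higher at an unadjusted p under 0.05, 5 of the 15 were under that limit, all higher. Beside il17a/f3 and its receptor gene IL17RA (1 of 4) at 0.54 ± 0.22 (SE), these were the chemokines ccl19 at 0.99 ± 0.43 and zgc:195195, similar to CCL20, at 0.89 ± 0.34 (SE), and irg1l, whose mammalian counterpart makes itaconate in macrophages, at 1.67 ± 0.80 (SE). The signals of ccl19 did not overlap, 10.74 to 11.44 before the experiment and 11.77 to 12.46 at ramp end. In irg1l the pre-experiment signals of 2.10, 4.16, 4.26, 4.07 and 4.26 lay near the floor of the arrays. The difference of il1b, a classic inflammatory cytokine, was 0.33 ± 0.72 (SE; adjusted p = 0.849 from limma), with 3 ramp-end fish above and 3 below the pre-experiment mean. As a mean over the 15 genes the ramp-end fish lay from 0.24 to 0.87 and the pre-experiment fish from -0.17 to 0.18, with ramp-end fish C1 again the lowest.

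Immediate early genes and regulators of the stress response had a median of 0.55 over the 11 genes of 15 that passed the filter, all 11 higher in mean. At an unadjusted p under 0.05 there were 3, where 14.4% of the 376 named genes and 6.91% of all genes and single probes were higher. The 3 were cebpd, a transcription factor of acute phase responses, at 0.79 ± 0.36, zc3h12a, a nuclease that degrades cytokine transcripts, at 0.61 ± 0.23, and PPP1R15B, a phosphatase subunit of the stress response to unfolded protein, at 0.34 ± 0.16 (SE). A second entry of the list under the same gene name, ZC3H12A (2 of 2), differed by 0.10 and was not under that limit. Genes of cytosolic and mitochondrial chaperones had a median of 0.02 with 0 of 6 under the unadjusted limit, and the endoplasmic reticulum chaperones a median of -0.01 with 0 of 17. The nucleolar genes of ribosome biogenesis had a median of -0.11, 18 of 23 below 0 and 0 under the limit, and the antiviral genes a median of 0.17 with 0 of 7, led by rsad2 at 0.81 ± 0.47 (SE).

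The ion transport genes of the gill showed differences of both signs. For the sodium pump, atp1a1a.1 had 8.66, 9.22, 8.53, 8.33 and 8.91 before the experiment and 8.90 to 10 at ramp end, a difference of 0.56 with a 95% interval of 0.03 to 1.09. Its probes differed, at 0.84 ± 0.35 for CUST_21771 and 0.28 ± 0.31 for CUST_21772 (SE). The far brighter isoform atp1a1a.4 differed by 0.54 (-0.29 to 1.37), the beta subunit atp1b1b by 0.14 (-0.47 to 0.75) and the gamma-like subunit by 0.38 (-0.15 to 0.90), with adjusted p of 0.443, 0.549, 0.847 and 0.516 from limma in that order. Without ramp-end fish B1 the difference of atp1b1b was -0.02. The sodium, potassium and chloride cotransporter slc12a2 had 8.76, 8.06, 9.20, 7.96 and 8.68 before the experiment and 7.05 to 9.26 at ramp end. Its difference was -0.69 (-1.56 to 0.18, adjusted p = 0.483 from limma), and ramp-end fish C1 held the highest signal of its group and of both groups. Of the 4 probes of slc12a2, 3 passed the filter. CUST_20645 and CUST_20646 differed by -0.95 ± 0.57 and -0.82 ± 0.58, and CUST_26575 by -0.31 ± 0.24 (SE). Over the ion and acid-base transport list, 15 of 18 genes passed the filter, the median was 0.32, and ano9a and atp1a1a.1 were the 2 with an unadjusted p under 0.05, a share near that of all genes and single probes (6.91% higher and 4.2% lower) and of the 376 named genes (18.4% in either direction). Of the junction and cytoskeleton genes, 14 of 15 passed the filter, with a median of 0.26. The claudins cldnd and cldnf, which seal the spaces between epithelial cells, were under the unadjusted limit at 0.92 ± 0.39 and 0.58 ± 0.23 (SE), together with prom2, while tns1 was lower at -0.74 ± 0.26 (SE). That is 3 higher and 1 lower of 14, where 14.4% of the 376 named genes were higher and 3.99% lower.

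Among the genes of energy metabolism, 17 of 20 passed the filter, with a median of 0.15 and 3 higher under the unadjusted limit, a share near the 14.4% of the 376 named genes. They were acadm, an enzyme of fatty acid oxidation, at 1.03 ± 0.34 (SE), ppp1r3cb, which targets a phosphatase to glycogen, at 0.88 ± 0.31 (SE) with no overlap of the groups, and mpi at 0.37 ± 0.15 (SE). Signals of acadm were 7.27, 8.44, 7.95, 7.30 and 7.22 before the experiment and 8.19 to 9.22 at ramp end. In the proteasome and ubiquitin list the median was 0.11, with ube2d1a higher and psmd11b and cul3a lower among 12 genes of 13, and in the aminoacyl-tRNA synthetase and amino acid list 0.20, with zgc:163121 higher among 11 of 13. Of the 376 named genes, 14.4% were higher and 3.99% lower under that limit.

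**Figure D4:**
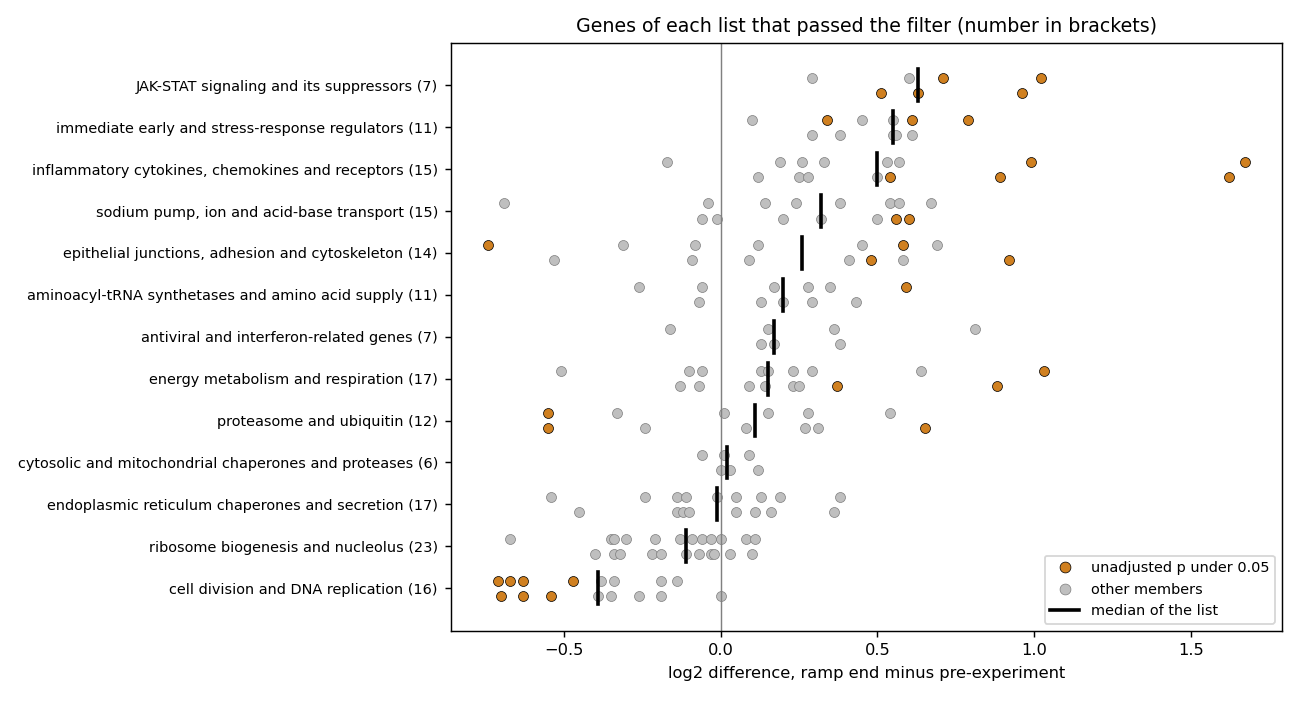
Log2 difference, ramp end minus pre-experiment, of each gene of the 13 lists that passed the filter, with the median of each list as a bar and genes with an unadjusted p under 0.05 in orange. Medians ran from -0.39 for cell division to 0.63 for JAK-STAT signaling, and 0 genes passed the adjusted threshold.

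The leading probes of the whole array have no gene name here. Probe CUST_34024 had the smallest p of all, with log2 signals of 5.53, 5.94, 6.10, 6.55 and 5.02 in the pre-experiment fish and 6.86 to 8.03 at ramp end, a difference of 1.53 ± 0.32 (SE; adjusted p = 0.193 from limma). Probe CUST_23270 followed at 1.18 ± 0.26 (SE), and probes CUST_33518 and CUST_33519 had the lowest moderated t, at -1.28 ± 0.30 and -1.18 ± 0.27 (SE). The groups did not overlap for any of these probes, which is largely built in because they were chosen by their t in this comparison. Each had a probe with a neighboring number and a like difference, 1.27 for CUST_34025 and 1.22 for CUST_23269. In the list with sequences, 210 of 236 probe pairs with consecutive numbers lie on a single transcript, so such neighbors may repeat one measurement.

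Later samples of the handling control were set against the same 5 pre-experiment fish. They therefore share that baseline with the ramp end, and the values are given side by side. By their hour labels, the pre-experiment fish and both later samples fall at a like time of day, and the ramp-end fish at another. Time of day and elapsed time therefore cannot be told apart in differences from ramp end. At 18 h after the ramp, 25 of 14225 genes and single probes were called at an adjusted p of 0.05 (0.176%), and at 42 h 1761 of 14226 (12.4%), with 6 fish at each time. The difference of il17a/f3 was 1.62 at ramp end, 2.87 at 18 h (adjusted p = 0.000291 from limma) and 3.08 at 42 h (adjusted p = 1.35e-05), so it had risen past the threshold at both later times. The rise of socs1a was 0.96, 1.74 and 1.77, that of si:dkey-61p9.9 1.36, 2.52 and 2.84, and that of PLEKHF1-like 1.42, 2.06 and 2.43, each past the threshold at 18 h and 42 h and not at ramp end. Directly from ramp end to 42 h, il17a/f3 rose by 1.46 (adjusted p = 0.026 from limma) and si:dkey-61p9.9 by 1.48 (adjusted p = 0.00918). The same difference did not pass for PLEKHF1-like at 1.01 (adjusted p = 0.0845 from limma) or socs1a at 0.80 (adjusted p = 0.0923). Of the 15 cytokine genes, 4 were called at 18 h and 14 at 42 h, all higher. Of the 376 named genes they come from, 14 were called at 18 h, all higher, and 189 at 42 h, 154 higher and 35 lower. The lectin stood at 1.63, 1.47 and 2.28 and was called at 42 h (adjusted p = 0.00016 from limma), while its difference between ramp end and 42 h, 0.65, did not pass (adjusted p = 0.313).

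Other leading genes did not keep their distance from the baseline. The differences of zgc:92533 were 1.23 at ramp end, 1.06 at 18 h and 0.16 at 42 h, and it fell by 1.07 between ramp end and 42 h (adjusted p = 0.0281 from limma), while acadm stood at 1.03, 0.85 and 0.24 with no call. Of the genes with low values at ramp end, hyou1, a chaperone of the endoplasmic reticulum, was at -0.45 and rose by 1.60 from ramp end to 42 h (adjusted p = 0.000116 from limma), nat10, an RNA acetyltransferase of the nucleolus, was at -0.67 and rose by 1.65 (adjusted p = 0.00108), and nasp and psmd11b rose by 1.06 (adjusted p = 0.000523) and 1.28 (adjusted p = 0.000238). These genes were named for their values at ramp end, which enter both differences. The medians of the ribosome biogenesis list were -0.11, 0.29 and 0.90 against the baseline at ramp end, 18 h and 42 h, and those of the endoplasmic reticulum list -0.01, 0.33 and 0.75. At 18 h 0 genes of either list were called, and at 42 h 17 of 23 and 12 of 17 were called higher, where 154 of the 376 named genes were. The median of the cell division list stayed near its ramp-end value, at -0.39, -0.40 and -0.45. At 42 h 1 of the 16 genes of that list was called, lower, where 35 of the 376 named genes were. Its members did not all stay low: nasp stood at -0.63, -0.10 and 0.43 and prim1 at -0.67, -0.54 and -0.16. At 42 h spc24, zwilch and birc5a were at -0.47, -0.47 and -0.49. Directly between ramp end and 18 h, 0 genes and single probes passed the threshold in limma, with 434 higher and 418 lower at an unadjusted p under 0.05, and Storey's q-value called 0 probes.

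**Figure D5:**
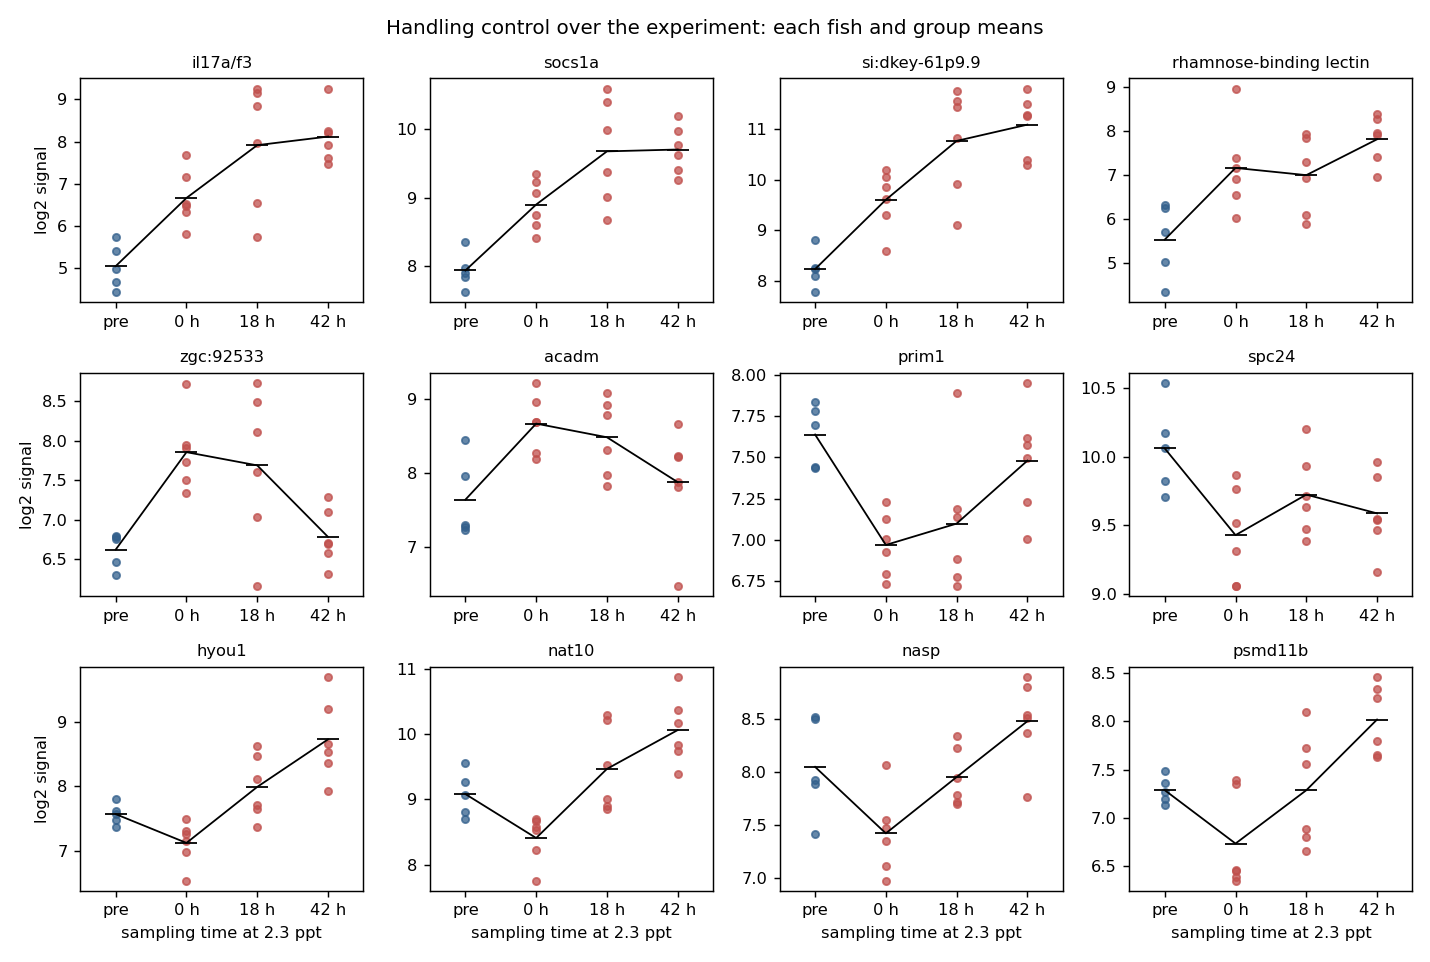
Log2 signal of each fish and group means (lines) before the experiment and in the handling control at 0, 18 and 42 h after the ramp for 12 named genes. Means of the 4 genes in the top row were higher at each time than before the experiment, and hyou1, nat10, nasp and psmd11b in the bottom row were lowest at 0 h and highest at 42 h.

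Fish whose salinity was changed over the same 6 h share the pre-experiment baseline as well. At ramp end the difference of il17a/f3 from the baseline was 3.43 at 0.4 ppt, 1.62 in the handling control, 1.25 at 6 ppt, 3.59 at 12 ppt and 2.88 at 18 ppt, with 4 fish at each changed salinity. The median of the cytokine list was 1.28, 0.50, 0.25, 1.30 and 0.77 in the same order, that of the JAK-STAT list 1.44, 0.63, 0.44, 1.70 and 1.06, and that of the cell division list -0.25, -0.39, -0.12, -0.61 and -0.14. The direct comparison of 12 ppt with the handling control at ramp end called 274 of 14225 genes and single probes (1.93%) and 40 of the 376 named genes, 28 higher and 12 lower, a list that the study chose for salinity effects in these arrays. Among them were il17a/f3 at 1.97 (adjusted p = 0.0303 from limma), socs1a at 1.23 (adjusted p = 0.0482) and si:ch73-340m8.2 at 1.46 (adjusted p = 0.0207), all higher at 12 ppt, and acadm at -1.38 (adjusted p = 0.0378). These genes were named for their values at ramp end, which enter this difference too. Of the 376 named genes, 0 were called against the handling control at 0.4 ppt and 6 ppt in limma, and 1, lower, at 18 ppt. At an unadjusted p under 0.05, 42 were higher and 22 lower at 0.4 ppt, where 324 and 640 of all 14225 genes and single probes were. At 6 ppt 22 were higher and 58 lower, where 1697 and 1894 of all 14225 were. Set against the pre-experiment fish instead, the 6 ppt group had 266 of 14425 probes under the unadjusted limit and the 18 ppt group 493. The 12 ppt group had 1002, the 0.4 ppt group 2007 and the handling control 1624 of 14424. The changed groups held 4 fish each and the handling control 6. All went through the same 6 h, so the handling control's count does not by itself show an effect of handling. Why these counts differed was not tested.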

How the data were processed

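The authors quantified each spot's intensity with Feature Extraction 11.5.1.1, which corrects background inside an array only. They also deposited log2 values, quantile normalized and, from the values, centered per probe, which served here as an alternative. A probe entered if its processed signal reached 100 on 50% or more of all 70 arrays, which 14425 of 36818 did. Within the 11 arrays 466 outlier spots of these probes were dropped, which left 1 probe untested. Signals were then quantile normalized together and log2 transformed. In limma 3.58.1 (R 4.3.3) the means of all 16 groups shared a single spread, with 54 residual and 3.39 prior degrees of freedom, and Benjamini-Hochberg adjustment ran across every probe, or every gene and single probe, at 0.05. The tests were checked on simulated data with independent noise for each probe and array. The simulation had no variation shared by the probes of an array, so it cannot show how the tests behave under it. The gene lists and their members were chosen with earlier results of these data known. Named genes were the 10 highest and 10 lowest moderated t, the member of each list with the largest absolute t, the 2 highest and 2 lowest probes without a name, and the sodium pump and slc12a2 whatever their values. Other list members were named after their values were seen. The number of fish limits precision. Alternatives covered normalization, background, filters, blocks, covariates, weights, tests and each fish left out.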

Additional observations from a re-analysis of the deposited data

Results flagged for a closer look

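In pre-experiment fish, A1 stood apart from the other 4 in pot1 at 8.25, with the next at 7.29, and B4 stood apart in birc5a at 8.44, with the next at 7.97. These are 2 of 76 groups of values, from the 38 genes and probes chosen by the naming rule, that were looked at in this way, and chance alone would set about 1 in 20 apart.

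At ramp end, 9 of the 38 genes and probes chosen by the naming rule differed between 12 ppt and the handling control by the test of that difference (limma, adjusted over all genes and single probes, n = 4 and 6 fish), where 40 of the 376 named genes and 274 of all 14225 genes and single probes (1.93%) were called. Those higher at 12 ppt were il17a/f3 at 1.97, nat10 at 1.51, si:dkey-61p9.9 at 1.56, si:ch73-340m8.2 at 1.46, socs1a at 1.23, tns1 at 1.13, hyou1 at 1.11 and cul3a at 0.93, with adjusted p from 0.0207 to 0.0482, and acadm was lower at -1.38 (adjusted p = 0.0378). For nat10, tns1, hyou1 and cul3a the handling control lay below the pre-experiment mean and 12 ppt above it. For acadm the handling control stood at 1.03 and 12 ppt at -0.35 against that mean. All 9 were named for their values at ramp end against the pre-experiment fish. The same ramp-end fish enter the difference from 12 ppt, so it is not independent of that choice.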

How the results depend on the processing

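Of 32 alternatives, 28 called 0 probes. Exceptions were no filter, which called 1 probe and put 3338 of 36817 under the unadjusted limit (1716 higher, 1622 lower), a signal of 100 on all 11 arrays with 1 and 522 of 4887, slide as a fixed block with 2 calls, CUST_23269 and CUST_23270, and array weights with 1580 calls and 4424 probes under the limit. The unadjusted count was 3046 of 30465 with a filter on signals well above background, 768 with brightness as a covariate and 783 on the first scan day, the latter with 8 of the 11 arrays. Leaving out each fish gave 0 calls throughout and unadjusted counts from 895 to 2937. Of the 38 genes and probes chosen by the naming rule, 36 kept their direction in every alternative that gave a value. The exceptions were DNAJC11 at -0.05 with another background correction and atp1b1b, which ran from -0.02 without ramp-end fish B1 to 0.27 over the fish left out. With array weights 27 of the 38 passed the threshold in limma. So did 48 of the 376 named genes and 10.8% of all 14225 genes and single probes. Apart from the sodium pump and slc12a2, the 38 were chosen by their t in this same comparison. A high share among them is therefore built in and is not an independent check. Among the 27 were il17a/f3 (adjusted p = 0.0253), socs1a (adjusted p = 0.0214) and prim1 (adjusted p = 0.021). The adjusted p of each of these genes ranged up to 0.924 over the alternatives. Of 416 list medians under the alternatives, 11 moved by more than the spread between fish. The cause was not tested for any of these. Labels of the fish are shared by A1, A3 and B1, whose deviations correlated at -0.11, 0.45 and 0.044, while other pairs ran from -0.67 to 0.71. So few pairs cannot show whether shared labels pair the fish. A fit with the replicate block gave 0 calls and 1784 probes under the limit. The planned background correction on mean spot signals could not be run, because the arrays' tables hold median signals, which were used in its place. That alternative, the first scan day and brightness within the 11 arrays were chosen after seeing the data.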
